A study of Homo sapiens with 4 samples.

Results

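The genes described here are the nuclear genes of respiratory complex I, 36 subunits and 4 assembly factors, taken by symbol from the gene tables. All 40 matched exactly 1 of the 57773 listed gene IDs, and all 40 had enough reads to be tested. The cells were MIA-PaCa2, an established line from a human pancreatic carcinoma, and their poly(A) RNA was sequenced in 2 groups of 2 libraries. The AMG510-resistant cells had been grown for 2 months in rising doses of AMG510 (sotorasib, a targeted cancer drug), reaching 5 µM. The untreated cells are controls of the same line, kept without the drug. The design text speaks of 2 cell populations in each group, and all cells were grown in the same serum-containing medium. The labels do not say whether the resistant cells were clones, whether the drug was present at harvest, or whether replicates were cultured apart, so the p-values cover only the spread among these libraries, which may be technical. For resistant replicate 2 the treatment tag gives AMG511 but the title AMG510, and it was kept as resistant.

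Complex I (NADH:ubiquinone oxidoreductase) is the largest enzyme of the mitochondrial respiratory chain. It takes electrons from NADH, passes them along a chain of iron-sulfur clusters to ubiquinone, and pumps protons across the inner membrane. The enzyme is L-shaped: a matrix arm holds the redox centres, a membrane arm holds the proton pumps, and its subunits come from both the nuclear and the mitochondrial genome. Accessory subunits surround the conserved core, and assembly factors help to build the enzyme without staying in it.

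Expected counts summed to 30146559 and 33074965 in resistant replicates 1 and 2, and to 38052558 and 35747414 in untreated replicates 1 and 2. A count of 0 allows up to 3 counts, or 0.0801 to 0.104 CPM (read counts scaled to library size with TMM factors), a limit that covers counting error only. The lowest member value in any library was 225 counts, so depth did not limit detection of any member. Of 5 markers of epithelial and pancreatic cancer cells, which summed to 9959 and 9316 CPM in resistant and 11671 and 9529.8 CPM in untreated libraries, 2 fell beside the complex I genes. KRT8 had 961.8 and 1245 CPM in resistant libraries, against 3091 and 2076 CPM in untreated libraries (−1.23, adjusted p = 0.00268 by edgeR). KRT18 had 957.2 and 1222 CPM in resistant libraries, against 2282 and 1735 CPM in untreated libraries (−0.88, adjusted p = 0.00692, and up to 0.0825 with 1 library left out). VIM, the bulk of the sum (0.33, adjusted p = 0.160), KRT19 (−0.50, adjusted p = 0.179) and EPCAM, which was low at 1.33 to 2.09 CPM, did not pass. CDKN2A had 0 counts in every library. Of the markers of other cell types, the summed fibroblast markers lay at 5.24 and 2.40 CPM in resistant and 0.325 and 0.267 CPM in untreated libraries, the immune markers at 33.9 and 9.43 CPM against 10.4 and 13.8 CPM, and the endothelial marker VWF between 0.266 and 0.552 CPM. Of the fibroblast sum most was PDGFRB (5.07 and 2.16 CPM in resistant, 0.0542 and 0.187 CPM in untreated libraries). PDGFRB was called higher (log2 fold change 4.86, SE 0.70, adjusted p = 7.69e-04 by edgeR). CD68 made up most of the immune sum, at 33.8 and 9.37 CPM in resistant and 10.3 and 13.7 CPM in untreated libraries. It did not pass (0.84, adjusted p = 0.376 by edgeR). The other markers, FAP, CD3E, DCN, LUM and PTPRC, stayed at or below 0.118, 0.0271, 0.0690, 0.190 and 0.134 CPM in every library. The part of other cells in the results was not tested.

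About as many complex I genes fell in resistant cells as were not called, and none rose. By the quasi-likelihood test of edgeR, with Benjamini-Hochberg adjustment across the 16090 genes tested, 21 of the 40 members (52.5%) fell at an adjusted p below 0.05, where 17.4% of all tested genes did. The count of members that rose was 0 of 40 (against 16.6% of all tested genes). At an unadjusted p below 0.05, 2 members were higher, and DESeq2 and limma-voom each called 0 higher. The median log2 fold change of the members was −0.50, and that of all tested genes −0.01. Of the 40 values 35 were below 0, as were 8161 of all 16090. In 32 members both resistant libraries lay below both untreated ones (80.0%, against 36.3% of all tested genes), in 4 both lay above (background 34.6%), and in 4 the groups overlapped. Summed over the 40 members, the level was 2076 and 2130.5 CPM in resistant libraries, against 3016 and 2740.0 CPM in untreated libraries. In bulk RNA, fewer cells expressing these genes and less RNA per cell cannot be told apart.

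The libraries did not weigh equally. Set against the untreated mean, the median member was at −0.52 in resistant replicate 1 and at −0.46 in resistant replicate 2 (log2), with 34 and 35 of 40 members below 0. Between the untreated libraries, replicate 1 was above replicate 2 in 38 of 40 members, by a median of 0.14. Without untreated replicate 1 the members called lower numbered 10, and without resistant replicate 1 they numbered 11, with medians between −0.52 and −0.42 over the 4 omissions. Each omission leaves a group with 1 library, which is then assumed to vary like the others. The 10 members called under every omission were NDUFV2, NDUFS1, NDUFS6, NDUFA9, NDUFC1, NDUFB8, NDUFB9, NDUFB10, NDUFAB1 and NDUFAF4.

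**Figure D1:**
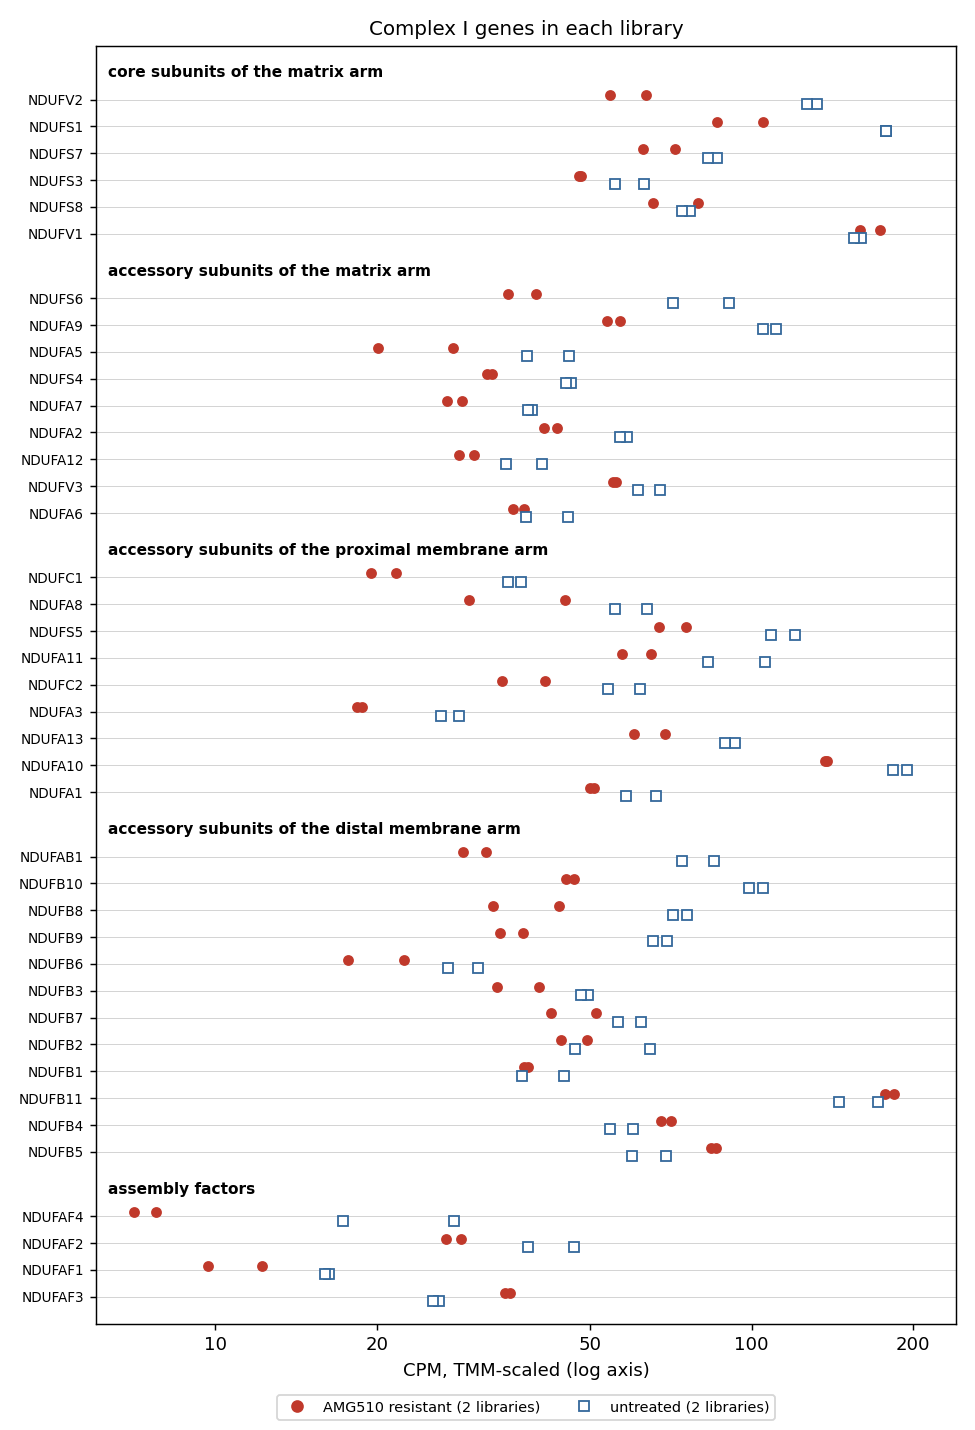
Level of each complex I gene in each library, in CPM on a log axis, by role in the enzyme. Filled circles are the 2 resistant libraries and open squares the 2 untreated ones. In 32 of 40 genes both circles lie left of both squares, and in NDUFB4, NDUFB5, NDUFB11 and NDUFAF3 they lie right of them.

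Promoter sequences are shown because many members differed in the same direction, and the motifs were searched in fallers and others alike. Of the 40 members, 36 had a promoter in the RefSeq table (GRCh38.p14), a window of 300 bases from 250 before to 50 after the start. The first listed promoter of each member was used, and every promoter listed under a tested gene's symbol. The motif GCGCANGCG, bound by the factor NRF1, was searched on both strands. It was in 9 of 36 members (25%), 12.6% of the 16030 promoters of tested genes and 7.52% of all 35116 promoters. AANATGGCG, a YY1 motif, was in 10 members (27.8%), 5.76% of promoters of tested genes and 3.19% of all promoters. CCGGAAG, a motif of the ETS factor GABP, was in 6 members (16.7%), 16.6% of promoters of tested genes and 10.3% of all promoters. Among the 18 members with a promoter that fell, 6 held the NRF1 motif, 5 the YY1 motif and 3 the GABP motif. The 18 that were not called held them in 3, 5 and 3 promoters. The first 4 of the sequences that follow belong to members that fell and the other 2 (NDUFB4 and NDUFA12) to members that were not called. Each gives the 120 bases before the start, 5′ to 3′ in the gene's direction, with the NRF1 motif (either strand) in capitals.
NDUFAB1 (chr16:23596317-23596436, minus strand): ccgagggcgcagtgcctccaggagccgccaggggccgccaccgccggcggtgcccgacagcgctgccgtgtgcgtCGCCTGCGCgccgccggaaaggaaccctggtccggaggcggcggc
NDUFS6 (chr5:1801287-1801406, plus strand): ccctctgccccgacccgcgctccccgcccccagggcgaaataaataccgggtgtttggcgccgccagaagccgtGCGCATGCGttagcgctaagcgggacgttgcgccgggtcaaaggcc
NDUFA9 (chr12:4648994-4649113, plus strand): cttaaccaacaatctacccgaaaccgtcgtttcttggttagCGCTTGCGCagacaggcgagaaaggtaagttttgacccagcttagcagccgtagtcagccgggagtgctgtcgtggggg
NDUFA3 (chr19:54102735-54102854, plus strand): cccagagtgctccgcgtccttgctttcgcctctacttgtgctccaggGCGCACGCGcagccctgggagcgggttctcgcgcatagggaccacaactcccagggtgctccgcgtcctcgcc
NDUFB4 (chr3:120596216-120596335, plus strand): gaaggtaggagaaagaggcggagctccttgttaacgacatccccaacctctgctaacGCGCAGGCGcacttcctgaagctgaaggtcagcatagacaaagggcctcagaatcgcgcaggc
NDUFA12 (chr12:95003698-95003817, minus strand): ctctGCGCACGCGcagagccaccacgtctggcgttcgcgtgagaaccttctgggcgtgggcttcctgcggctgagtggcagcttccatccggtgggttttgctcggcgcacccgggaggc
The motif thus stood before members of both kinds, and a match describes letters, not bound sites.

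The core subunits of the matrix arm carry the redox centres and the path of electrons to ubiquinone. Of the 6 listed, 2 fell (33.3%, against 17.4% of all tested genes) and 4 were not called (median log2 fold change −0.32). NDUFV2, which holds an iron-sulfur cluster near the entry of electrons (chromosome 18), had 54.4 and 63.6 CPM in resistant libraries, against 132.6 and 127.1 CPM in untreated libraries. Its groups lay far apart and differed by −1.14 in log2 fold change (SE 0.16, adjusted p = 6.22e-04). NDUFS1, the large subunit that carries several clusters (chromosome 2), had 86.1 and 104.8 CPM in resistant libraries, against 177.7 and 178.2 CPM in untreated libraries. Both resistant values were well under the untreated pair (−0.90, SE 0.17, adjusted p = 0.00257). NDUFV1, the NADH-binding partner of NDUFV2 (chromosome 11), had 173.6 and 159.6 CPM in resistant libraries, against 160.1 and 154.9 CPM in untreated libraries. Its groups overlapped and it did not pass (0.08, SE 0.16, adjusted p = 0.721). NDUFS8, which carries 2 clusters on the way to ubiquinone, also overlapped, at 79.3 and 65.6 CPM in resistant and 76.7 and 74.0 CPM in untreated libraries (−0.06, adjusted p = 0.809). NDUFS7, which lies next to the ubiquinone site, and NDUFS3 had log2 fold changes of −0.33 and −0.31 and did not pass (adjusted p = 0.129 and 0.156), with groups that did not overlap.

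Accessory subunits of the matrix arm stabilise the core or are needed late in assembly. Of 9, 5 fell (55.6%, against 17.4% of all tested genes) and 4 were not called (median −0.47). In all 9 the resistant libraries were below the untreated ones, as in 36.3% of all tested genes. The number called was 2 without untreated replicate 1 or resistant replicate 1 and 3 without either of the others. NDUFS6, a zinc-binding subunit added late (chromosome 5), had 39.6 and 35.1 CPM in resistant libraries, against 90.6 and 71.4 CPM in untreated libraries (−1.12, SE 0.17, adjusted p = 0.00116). It was the farthest apart of the group. NDUFA9, which sits where the arms join (chromosome 12), had 56.9 and 53.7 CPM in resistant libraries, against 111.2 and 105.2 CPM in untreated libraries (−0.97, SE 0.15, adjusted p = 0.00116). NDUFA5 (chromosome 7) had 20.1 and 27.7 CPM in resistant libraries, against 45.6 and 38.1 CPM in untreated libraries (−0.81, SE 0.21, adjusted p = 0.0128). Resistant replicate 1 was the lower of its pair, and the call of NDUFA5 ended without untreated replicate 1 (adjusted p = 0.0973) or resistant replicate 1 (0.0660). NDUFS4, which is mutated in a form of Leigh syndrome (chromosome 5), had 32.1 and 32.8 CPM in resistant libraries, against 46.1 and 45.1 CPM in untreated libraries (−0.49, SE 0.16, adjusted p = 0.0396). NDUFA2, also on chromosome 5, had 41.0 and 43.4 CPM in resistant libraries, against 58.5 and 56.9 CPM in untreated libraries (−0.45, SE 0.16, adjusted p = 0.0465). The pairs of both genes were tight and separate, but neither was called when any 1 library was left out (adjusted p from 0.0804 to 0.181 for NDUFS4 and from 0.0791 to 0.221 for NDUFA2). NDUFV3 had 55.1 and 55.9 CPM in resistant libraries, against 67.6 and 61.4 CPM in untreated libraries, and did not pass (−0.22, adjusted p = 0.305). NDUFA7 (−0.47, adjusted p = 0.0561), NDUFA12 (−0.36, adjusted p = 0.140) and NDUFA6 (−0.18, adjusted p = 0.448) did not pass either.

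Accessory subunits of the proximal membrane arm surround the part of the membrane arm next to the matrix arm. Here 8 of 9 fell (88.9%, against 17.4% of all tested genes) and 1 was not called (median −0.62). In all 9 no resistant library reached an untreated one, as in 36.3% of all tested genes. The number called was 1 without untreated replicate 1 or resistant replicate 1 and 5 without either of the others. NDUFC1 (chromosome 4) had 19.5 and 21.7 CPM in resistant libraries, against 37.2 and 35.2 CPM in untreated libraries (−0.81, SE 0.18, adjusted p = 0.00665). NDUFS5, a subunit on the intermembrane side (chromosome 1), had 67.2 and 75.4 CPM in resistant libraries, against 120.4 and 108.8 CPM in untreated libraries (−0.68, SE 0.16, adjusted p = 0.00777). NDUFA8, a cysteine-rich subunit of the same face (chromosome 9), had 29.7 and 44.8 CPM in resistant libraries, against 63.9 and 55.7 CPM in untreated libraries (−0.68, SE 0.21, adjusted p = 0.0284). NDUFA8 was the most uneven of the 40 between the resistant libraries, replicate 1 being the lower. NDUFA11 (chromosome 19) had 57.3 and 64.9 CPM in resistant libraries, against 106.0 and 82.9 CPM in untreated libraries (−0.63, SE 0.17, adjusted p = 0.0177). NDUFC2 (chromosome 11) had 34.2 and 41.1 CPM in resistant libraries, against 61.9 and 54.0 CPM in untreated libraries (−0.62, SE 0.17, adjusted p = 0.0189). The calls of NDUFS5, NDUFA8, NDUFA11 and NDUFC2 ended without untreated replicate 1 (adjusted p = 0.0604, 0.165, 0.182 and 0.145) and without resistant replicate 1 (adjusted p = 0.0590, 0.210, 0.0918 and 0.125).

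The other proximal subunits differed less. NDUFA3 (chromosome 19) had 18.4 and 18.8 CPM in resistant libraries, against 26.3 and 28.5 CPM in untreated libraries (−0.56, SE 0.19, adjusted p = 0.0411). NDUFA13, also known as GRIM-19 and studied as a regulator of cell death (chromosome 19), had 68.9 and 60.3 CPM in resistant libraries, against 93.3 and 89.3 CPM in untreated libraries (−0.50, SE 0.15, adjusted p = 0.0299). NDUFA10 (chromosome 2) had 137.1 and 138.3 CPM in resistant libraries, against 194.7 and 183.6 CPM in untreated libraries (−0.46, SE 0.16, adjusted p = 0.0422). In all 3 genes the pairs were clearly separate, yet the calls ended when any 1 library was left out (adjusted p up to 0.146, 0.153 and 0.212). NDUFA1, an X-linked subunit, had 50.9 and 50 CPM in resistant libraries, against 66.2 and 58.3 CPM in untreated libraries, and did not pass (−0.30, SE 0.16, adjusted p = 0.162).

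The accessory subunits of the distal membrane arm moved unevenly. Of 12, 4 fell (33.3%, against 17.4% of all tested genes) and 8 were not called (median −0.38). NDUFAB1, the mitochondrial acyl carrier protein, is both a subunit and a carrier for mitochondrial fatty acid synthesis (chromosome 16). It had 28.9 and 31.9 CPM in resistant libraries, against 85.0 and 74.1 CPM in untreated libraries (−1.39, SE 0.16, adjusted p = 2.39e-04), the smallest adjusted p of the 40. NDUFB10, on the same chromosome, had 46.6 and 45.0 CPM in resistant libraries, against 105.1 and 98.8 CPM in untreated libraries (−1.15, SE 0.15, adjusted p = 4.68e-04). NDUFB8, whose protein is a common marker of assembled complex I (chromosome 10), had 32.9 and 43.8 CPM in resistant libraries, against 75.7 and 71.3 CPM in untreated libraries (−0.94, SE 0.18, adjusted p = 0.00310). NDUFB9 (chromosome 8) had 34.0 and 37.5 CPM in resistant libraries, against 69.6 and 65.6 CPM in untreated libraries (−0.92, SE 0.16, adjusted p = 0.00199). In these 4 genes the resistant pair lay far below the untreated pair, and each call remained when any 1 library was left out. NDUFB6 (−0.53, adjusted p = 0.0658), NDUFB3 (−0.41, adjusted p = 0.0892), NDUFB7 (−0.35, adjusted p = 0.138), NDUFB2 (−0.25, adjusted p = 0.321) and NDUFB1 (−0.11, adjusted p = 0.651) did not pass. NDUFB6 was called lower without resistant replicate 2 (adjusted p = 0.0338), while NDUFB1 and NDUFB2 had values above 0 without untreated replicate 1 (0.05 and 0.02).

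A further 3 of the 12 distal subunits were higher in both resistant libraries than in either untreated one, as were 34.6% of all tested genes. None of the 3 passed. NDUFB5 (chromosome 3) had 85.8 and 84.1 CPM in resistant libraries, against 69.3 and 59.8 CPM in untreated libraries (0.40, SE 0.16, adjusted p = 0.0725). Only upper-quartile scaling, among the settings tried, called it (adjusted p = 0.0467). NDUFB4 (chromosome 3) had 70.6 and 67.9 CPM in resistant libraries, against 60.1 and 54.5 CPM in untreated libraries (0.27, SE 0.15, adjusted p = 0.195). NDUFB11, an X-linked subunit, had 177.3 and 184.0 CPM in resistant libraries, against 171.9 and 145.3 CPM in untreated libraries (0.19, SE 0.16, adjusted p = 0.404). The untreated libraries of NDUFB11 were further from each other than replicate 1 was from the resistant pair.

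Among the 4 assembly factors 2 fell (50%, against 17.4% of all tested genes) and 2 were not called (median −0.58). NDUFAF4, which works with NDUFAF3 on an early assembly intermediate (chromosome 6), had 7.76 and 7.05 CPM in resistant libraries, against 27.8 and 17.3 CPM in untreated libraries. Its log2 fold change of −1.60 (SE 0.27, adjusted p = 0.00159) was the lowest of the 40 members, although the untreated libraries differed, replicate 1 being higher. Leaving out untreated replicate 1 gave −1.20, and leaving out untreated replicate 2 gave −1.92. NDUFAF3, its partner (chromosome 3), had 35.4 and 34.7 CPM in resistant libraries, against 26.1 and 25.5 CPM in untreated libraries. The pairs of NDUFAF3 were separate and higher in resistant cells, but it did not pass (0.44, SE 0.17, adjusted p = 0.0713). NDUFAF2, a factor of a late assembly step (chromosome 5), had 28.7 and 26.9 CPM in resistant libraries, against 46.6 and 38.3 CPM in untreated libraries (−0.61, SE 0.18, adjusted p = 0.0245). NDUFAF2 was not called once untreated replicate 1 (adjusted p = 0.212) or resistant replicate 2 (adjusted p = 0.0626) was left out. NDUFAF1, a factor of membrane arm assembly (chromosome 15), did not pass (−0.56, SE 0.23, adjusted p = 0.0857).

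Since fold changes differ by chromosome in these cells, each member was set beside its 20 nearest tested protein-coding neighbours, 10 on each side in gene order. The neighbourhood medians ran from −0.72 to 0.79 (log2 fold change), and 36 of the 40 members were below theirs, with a median difference of −0.48. The share of all tested genes that lay below their own neighbourhood was not computed. Across the 40 members, which share the same 4 libraries and in places the same neighbours, Pearson's r between member and neighbourhood was 0.50 and Spearman's rho 0.45. The 21 members that fell had a median neighbourhood value of −0.15, and the 19 not called one of 0.19. NDUFAF4 differed most from its surroundings (difference −1.50, neighbourhood at −0.10), followed by NDUFC2 (difference −1.28, neighbourhood at 0.66) and NDUFA5 (difference −1.11, neighbourhood at 0.31). NDUFA6, not called by itself, lay below its chromosome 22 neighbours (difference −0.97, neighbourhood at 0.79).

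On chromosome 5, where tested protein-coding genes had a median of −0.41, all 4 members fell, against 17.4% of all tested genes. The share of chromosome 5 genes called lower was not computed. The calls of NDUFS4, NDUFA2 and NDUFAF2 did not hold under every omission of a library. By member minus neighbourhood, NDUFS4 (−0.04), NDUFA2 (0.06) and NDUFAF2 (0.03) were level with their neighbours. NDUFS6 was lower than its own (difference −0.40, neighbourhood at −0.72). Chromosome 11, with 4 members, had a median of 0.42. NDUFV1, NDUFS8 and NDUFS3 lay under their neighbours (differences of −0.42, −0.56 and −0.61) without being called. NDUFC2, which fell, also lay under its own (difference −1.28, neighbourhood at 0.66). The 3 members on chromosome 3 included NDUFB5 (difference −0.20, neighbourhood at 0.60) and NDUFB4 (difference −0.09, neighbourhood at 0.36), which were close to their neighbours. The other, NDUFAF3, was above its own (difference 0.60, neighbourhood at −0.15). The part of chromosome position in the members' values was not tested.

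**Figure D2:**
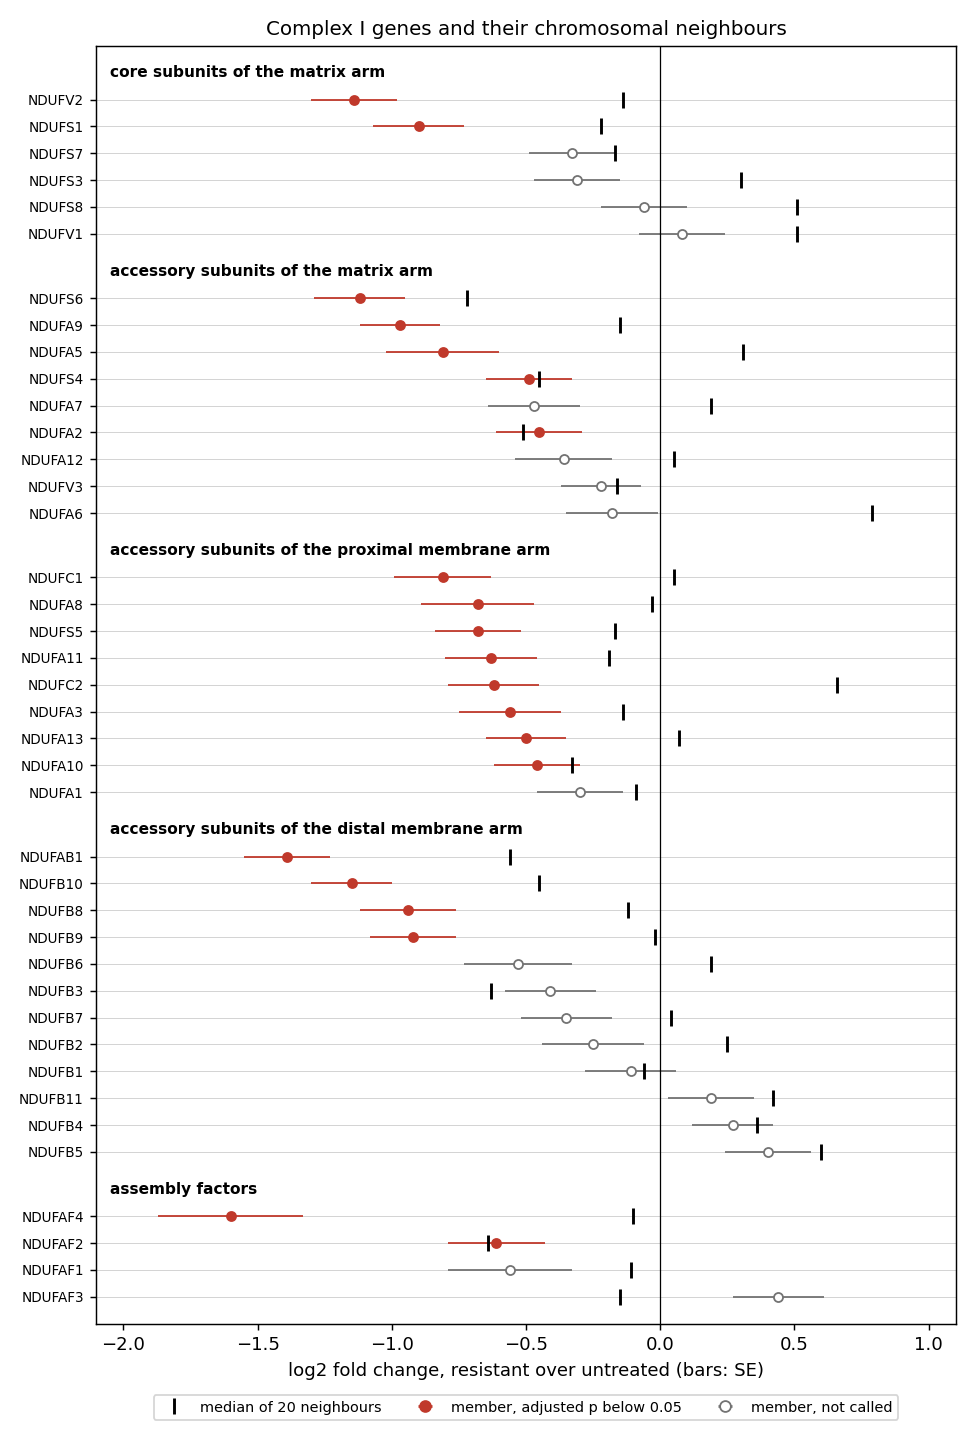
Log2 fold change, resistant over untreated, of each complex I gene with its standard error (bars), by role. Filled circles passed at an adjusted p below 0.05, and black ticks are the median of the 20 nearest tested protein-coding genes. In 8 of 9 proximal membrane arm subunits the circle is filled.

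**Figure D3:**
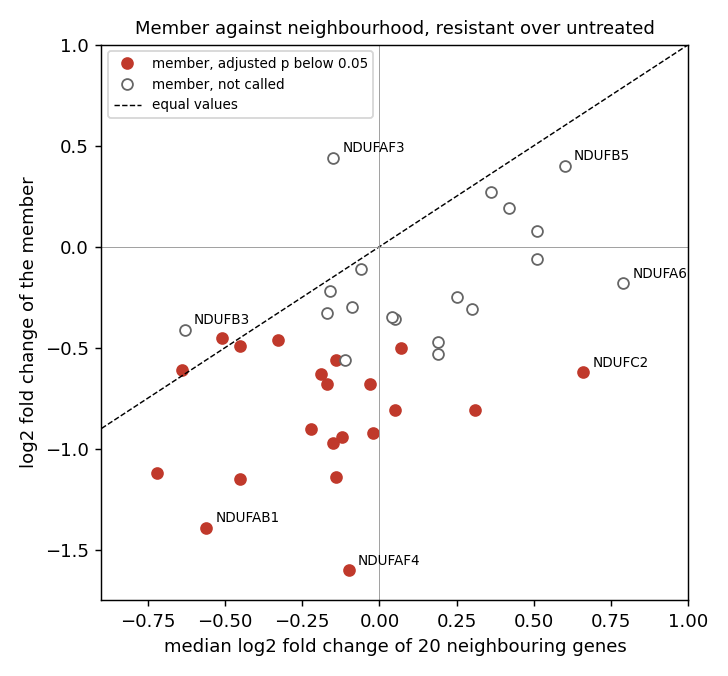
Log2 fold change of each complex I gene (vertical) against the median of its 20 neighbours (horizontal), both resistant over untreated. The dashed line marks equal values, and 36 of 40 genes are under it, with NDUFAF4 the farthest below and NDUFAF3 the farthest above.

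Some members share sequence with other genes, and the strand setting of the counting is not given in the sources used here. Exons of 10 members (NDUFS3, NDUFA1, NDUFA2, NDUFA3, NDUFA7, NDUFB2, NDUFB3, NDUFB8, NDUFB11 and NDUFAF3) overlap those of another expressed gene over at least 5% of their length, where the other gene has at least 10% of the member's counts, and their values are uncertain. NDUFA2 overlaps TMCO6, which had 1106 counts in resistant and 2112 in untreated libraries, and NDUFB8 overlaps HIF1AN, with 4533 and 6053 counts. NDUFA3, also called, overlaps TFPT, with 472 and 1025 counts. NDUFAF3, higher in resistant cells but not called, overlaps DALRD3, which had 1796 counts in resistant and 1074 in untreated libraries. Leaving out these 10 members, 18 of 30 fell and the median was −0.58, where 17.4% of all tested genes fell. All tested genes were not filtered for overlap, and the part of overlap in the members' values was not tested. NDUFV2 has a pseudogene with reads of its own, NDUFV2P1, with 202 counts in resistant and 568 in untreated libraries, beside 3724 and 9654 for NDUFV2 itself.

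The other genes that belong to or build complex I were tested the same way. Of 16 further subunits and factors 7 fell (43.8%, against 17.4% of all tested genes) and 1 rose (6.25%, against 16.6%). The other 8 were not called (median −0.46 over the 16). The number lower was 3 without untreated replicate 1, 4 without resistant replicate 1, 6 without untreated replicate 2 and 5 without resistant replicate 2. FOXRED1, an assembly factor, had 20 and 22.9 CPM in resistant libraries, against 40 and 39.6 CPM in untreated libraries (−0.89, SE 0.18, adjusted p = 0.00409). TMEM70, which acts on complex I and ATP synthase, had 11.2 and 8.35 CPM in resistant libraries, against 26.5 and 16.8 CPM in untreated libraries (−1.15, SE 0.27, adjusted p = 0.00929). Its untreated values were uneven, and TMEM70 was not called when untreated replicate 1 was left out (adjusted p = 0.111). TMEM186 (−0.96, adjusted p = 0.0118) is uncertain because it overlaps PMM2. The gene that rose was the assembly factor TMEM126B, named after its value was seen (0.56, SE 0.18, adjusted p = 0.0323, and not called when any 1 library was left out, adjusted p up to 0.111). ACAD9, an assembly factor related to acyl-CoA dehydrogenases, did not pass (−0.43, adjusted p = 0.0624).

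The mitochondrially encoded subunits form the proton-pumping part of the membrane arm. Of 7, 3 fell (42.9%, against 17.4% of all tested genes), 0 rose (against 16.6%) and 4 were not called (median −0.33). At an unadjusted p below 0.05, by DESeq2 and by limma-voom 0 rose too. MT-ND2 had 2349 and 2912 CPM in resistant libraries, against 4440.0 and 4007 CPM in untreated libraries (−0.68, SE 0.18, adjusted p = 0.0138). MT-ND1 fell by 0.63 (SE 0.16, adjusted p = 0.0143) and MT-ND6 by 1.23 (SE 0.34, adjusted p = 0.0339). Without untreated replicate 1 none of these 3 was called (adjusted p = 0.125, 0.113 and 0.176), and without resistant replicate 1 MT-ND2 and MT-ND1 were not (0.232 and 0.193). MT-ND6 lies antisense to the other mitochondrial subunit genes, so without a stated strand setting its reads are uncertain. MT-ND4 did not pass (0.08, adjusted p = 0.764), and its groups overlapped.

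Regulators of mitochondrial gene expression were mixed. Of 12 tested, 3 fell (25%, near the 17.4% of all tested genes), 1 rose (8.33%, against 16.6%) and 8 were not called (median −0.31). The number lower was 1 without untreated replicate 1 and 2 without either resistant library. TFAM packages mitochondrial DNA and takes part in its transcription. It had 24.8 and 33.2 CPM in resistant libraries, against 90.2 and 69.3 CPM in untreated libraries (−1.46, SE 0.20, adjusted p = 5.75e-04). TFB2M, a mitochondrial transcription factor (−0.89, adjusted p = 0.00835), and PPARGC1B, a coactivator of respiratory genes (−0.74, adjusted p = 0.0201), also fell. Without untreated replicate 1 neither TFB2M nor PPARGC1B was called (adjusted p = 0.106 and 0.0746), and PPARGC1B was not called without any 1 of the others (adjusted p up to 0.0753). YY1, named after its value was seen, was the riser (0.51, SE 0.18, adjusted p = 0.0462), and its call ended without untreated replicate 1, untreated replicate 2 or resistant replicate 1 (adjusted p = 0.0663, 0.217 and 0.315). NRF1 (−0.37, adjusted p = 0.196), GABPA (0.08, adjusted p = 0.782) and POLRMT, the mitochondrial RNA polymerase (0.17, adjusted p = 0.501), did not pass. PPARGC1A was too low to test, at 0.0267 to 0.0690 CPM.

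Iron-sulfur cluster assembly supplies cofactors of the matrix arm. Among its 15 tested genes 5 fell (33.3%, against 17.4% of all tested genes), 1 rose (6.67%, against 16.6%) and 9 were not called (median −0.23). Without untreated replicate 1 the number lower was 1. HSPA9, the chaperone that hands clusters on, had 599.5 and 497.6 CPM in resistant libraries, against 1150.0 and 903.3 CPM in untreated libraries (−0.90, SE 0.19, adjusted p = 0.00455, and 0.0510 without untreated replicate 1). NFS1, the sulfur donor, fell by 0.70 (SE 0.16, adjusted p = 0.00841), and BOLA3 by 0.88 (adjusted p = 0.00829, and 0.0742 without untreated replicate 1). GLRX5, a glutaredoxin of the same route, did not pass (−0.36, adjusted p = 0.147), and its value is uncertain because it overlaps another expressed gene. Of 13 import and supercomplex factors 6 fell (46.2%, against 17.4% of all tested genes) and 0 rose (against 16.6%). The other 7 were not called (median −0.47 over the 13), and 0 rose at an unadjusted p below 0.05 or by DESeq2 or limma-voom. Without untreated replicate 1 the number lower was 2. AIFM1, which with CHCHD4 imports several small complex I subunits, had 81.6 and 83.8 CPM in resistant libraries, against 156.1 and 145.1 CPM in untreated libraries (−0.86, SE 0.15, adjusted p = 0.00220). HIGD1A, a small inner-membrane protein of the respiratory chain, fell by 1.33 (SE 0.18, adjusted p = 5.80e-04), and PMPCA, a subunit of the mitochondrial processing peptidase, by 0.79 (adjusted p = 0.00549, and 0.0504 without untreated replicate 1). TOMM20, a receptor of the outer membrane import machinery, did not pass (−0.41, adjusted p = 0.0921).

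The ubiquinone pool takes the electrons of complex I and of other donors. Of 18 genes 5 fell (27.8%, against 17.4% of all tested genes), 1 rose (5.56%, against 16.6%) and 12 were not called (median −0.37). The number lower was 1 without untreated replicate 1 and 3 without any 1 of the others. PDSS1, which makes the side chain of ubiquinone, had 1.93 and 2.61 CPM in resistant libraries, against 13.1 and 8.90 CPM in untreated libraries (−2.27, SE 0.34, adjusted p = 8.46e-04), and is uncertain because it overlaps ABI1. GPD2, a dehydrogenase that feeds ubiquinone from glycerol phosphate, fell by 0.99 (adjusted p = 0.0124, and 0.0913 without untreated replicate 1). ETFA and ETFB form the flavoprotein that carries electrons from fatty acid oxidation towards ubiquinone. ETFA fell by 0.51 (SE 0.15, adjusted p = 0.0236) and was not called without untreated replicate 1, resistant replicate 1 or resistant replicate 2 (adjusted p = 0.125, 0.138 and 0.0623). ETFB did not pass (−0.31, adjusted p = 0.146).

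Subunits of the other respiratory complexes were also lower in part. Of 24 nuclear subunits of complexes II to IV, 15 fell (62.5%, against 17.4% of all tested genes) and 0 rose (against 16.6%). The other 9 were not called, and 0 rose at an unadjusted p below 0.05 or by DESeq2 or limma-voom. The number lower was 7 without untreated replicate 1 or resistant replicate 1 and 12 without either of the others. Their median log2 fold change was −0.57, beside −0.50 for the complex I members, and the difference between the lists was not tested. UQCRC2, a core protein of complex III, had 117.1 and 125.0 CPM in resistant libraries, against 259.2 and 249.7 CPM in untreated libraries (−1.07, SE 0.16, adjusted p = 8.34e-04). CYC1, cytochrome c1 of the same complex, fell by 0.97 (SE 0.16, adjusted p = 0.00156), and UQCRQ by 0.95 (SE 0.17, adjusted p = 0.00243). COX4I1, a subunit of complex IV, did not pass (0.05, adjusted p = 0.827).

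**Figure D4:**
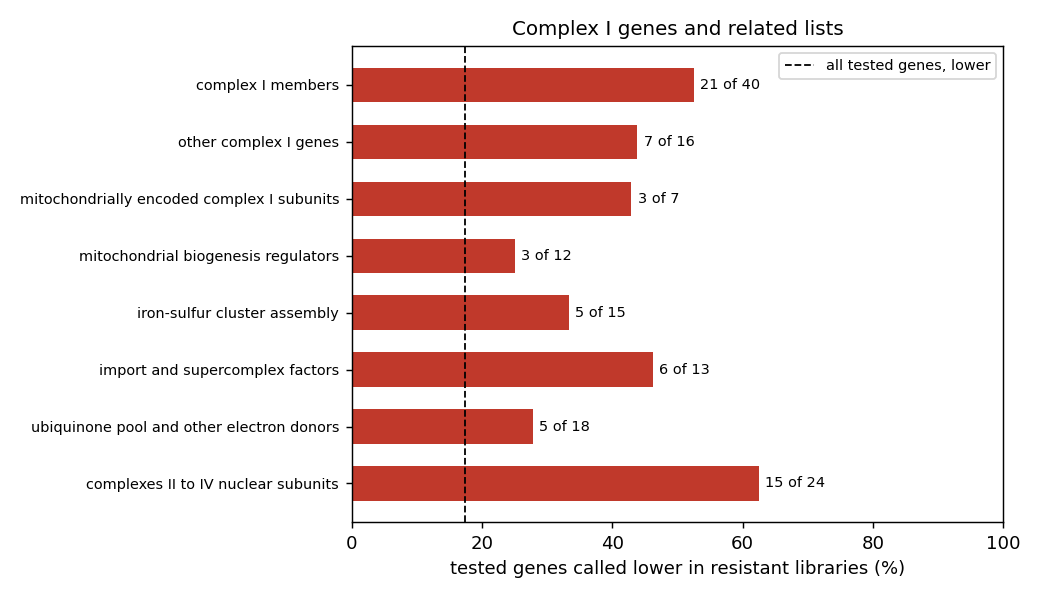
Share of tested genes called lower in resistant libraries (%, bars) for the complex I genes and related lists, with the number called of the number tested beside each bar. The dashed line marks the 17.4% of all tested genes called lower, and the bars run from 25% for biogenesis regulators to 62.5% for complexes II to IV.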

How the data were processed

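The authors deposited 1 table of expected counts per library, not scaled to depth, per the file headers. Per the submitters' processing notes, the tools were STAR 2.7.2b and RSEM 1.3.1 with genome build GRCh37, while the tools' roles, the annotation release and the strand setting are not given in the sources used here. Of all values 93.6% were whole, and values were rounded for testing. Groups came from sample titles. edgeR 4.0.16 (R 4.3.3) kept 16090 genes with filterByExpr, scaled libraries by TMM (factors 0.962 to 1.05) and compared resistant with untreated libraries by its quasi-likelihood F-test with robust dispersions, adjusting p-values by Benjamini-Hochberg over all tested genes. Log2 fold changes are resistant over untreated, and an SE is the fold change divided by the root of F. Per-library log2 levels used a prior count of 2. GENCODE 29, of another build, gave gene order, chromosomes and exon overlaps only, and RefSeq (GRCh38.p14) gave promoters.

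The members and lists were chosen with earlier results of these data known, so no list was tested. Named genes were members called lower, smallest adjusted p first up to 20, the most abundant member not called in each role group, and in each list the 3 called genes of smallest adjusted p and the most abundant not called. NDUFA2, the last of the 21 called, and genes outside this rule were named after their values were seen. The pathway lists held 108 symbols, of which 107 had an ID. Some genes of these lists are not reported here by name. The alternatives tried were no filter, a filter of 1 CPM in 2 libraries, scaling by RLE or upper quartile, DESeq2 1.42.0, limma-voom (limma 3.58.1), the other quasi-likelihood form, a replicate block, a threshold of 0.01, leaving out each library, and 25 neighbours or the whole chromosome.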

Additional observations from a re-analysis of the deposited data

How the results depend on the processing

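All 40 members kept the sign of their log2 fold change under every setting, except NDUFS8 without resistant replicate 2 and NDUFB1 and NDUFB2 without untreated replicate 1. With each library left out, NDUFS8 ran from −0.18 to 0.07, NDUFB1 from −0.25 to 0.05 and NDUFB2 from −0.48 to 0.02. In the same omissions all tested genes called higher numbered 1510 to 2548 and lower 1322 to 2493, and members called lower numbered 10 to 16, with a median of −0.52 to −0.42. In these the matrix arm core had a median of −0.39 to −0.23, matrix arm accessory subunits called lower numbered 2 to 3, proximal membrane arm subunits 1 to 5, and assembly factors 1 to 2 (median −0.67 to −0.48). The other complex I genes gave 3 to 6 lower and 0 higher (−0.52 to −0.40), mitochondrially encoded subunits 0 to 3 lower (−0.55 to −0.16), biogenesis regulators 1 to 3 lower and 0 to 1 higher (−0.44 to −0.15), and iron-sulfur genes 1 to 5 lower and 0 to 2 higher (−0.35 to −0.13). Import and supercomplex factors gave 2 to 6 lower, ubiquinone genes 1 to 3 lower and 0 to 2 higher (−0.45 to −0.34), and complexes II to IV 7 to 12 lower (−0.58 to −0.49). At a threshold of 0.01 all genes gave 1444 higher and 1388 lower, members 11 lower, matrix arm accessory subunits 2, proximal subunits 2 and assembly factors 1. That threshold left 2 lower and 0 higher among other complex I genes, 0 lower among mitochondrially encoded subunits, 0 higher among regulators, 3 lower and 0 higher among iron-sulfur genes, 3 lower among import factors, 1 lower and 0 higher among ubiquinone genes, and 8 lower in complexes II to IV. Upper-quartile scaling called 1 member higher, the distal subunit NDUFB5 (1 of 12 there), and 3 ubiquinone genes lower. DESeq2 called 3 matrix arm accessory subunits lower. With the replicate number as a block, all genes gave 2593 higher and 2682 lower, members 18 lower, matrix arm accessory subunits 3 lower and iron-sulfur genes 0 higher. The labels do not say whether same-numbered libraries are paired. Their deviations correlated at −0.0604, which cannot decide it with 2 libraries a group. With 25 neighbours on each side the median of member minus neighbourhood was −0.57, and without members that overlap another expressed gene, an alternative chosen after the data were seen, the median was −0.58. Where these counts moved, the cause was not tested, apart from the stricter threshold, which by construction calls fewer genes. With 2 libraries a group and a common biological coefficient of variation of 19.6%, small changes could not be called.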

Other observations

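Many complex I transcripts are short, so tested protein-coding genes were also grouped by the length of their main annotated transcript, after the data were seen. Of genes under 1000 bases that were not members, 20.9% of 618 were called lower, with a median log2 fold change of −0.14, while 13 of the 22 members of that length fell, with a median of −0.50. In the class from 1000 to under 3000 bases, 20.5% of 5495 other genes were called lower (median −0.06) and 5 of 14 members fell (median −0.43). At 3000 bases or more, 19.0% of 6705 other genes were called lower (median −0.01) and 3 of 4 members fell (median −0.68). The part of transcript length in the members' values was not tested.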
